A study of Mus musculus with 9 samples.

Results

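The genes described here encode the channels, pumps and sensors of the intracellular calcium store. They were chosen by name and comprised the ryanodine receptors (Ryr1, Ryr2, Ryr3), the inositol 1,4,5-trisphosphate (IP3) receptors (Itpr1, Itpr2, Itpr3), the SERCA pumps Atp2a2 and Atp2a3 and the store sensors Stim1 and Stim2. These 10 genes were among 48709 in the deposited count files, and all 10 passed the filter on low counts, as did 17361 genes in all. RNA was measured in NeuN-sorted neuronal nuclei from frozen hippocampus, with 3 libraries in each of 3 groups: WT vehicle, Tg4-42 vehicle and Tg4-42 caffeine. Tg4-42 mice are C57BL/6J animals that express human Aβ4-42 under the neuronal murine Thy1 promoter, fused to the signal peptide of thyrotropin-releasing hormone (Trh), and were homozygous for the transgene. The caffeine group drank water with 300 mg/l caffeine for 4 months from 2 months of age. All groups were taken at 6 months, and the vehicle groups drank tap water per the methods of the study. Caffeine-treated WT mice were not analysed here, so genotype and caffeine could not be crossed.

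The endoplasmic reticulum of neurons stores calcium and releases it through 2 channel families. IP3 receptors open when phospholipase C makes IP3 below activated surface receptors, and ryanodine receptors open when cytosolic calcium rises. SERCA pumps return calcium to the store, and STIM proteins sense its filling and gate entry through Orai channels at the plasma membrane. Caffeine is a classical activator of ryanodine receptors in cells and tissue slices, besides blocking adenosine receptors. The paper cites evidence that caffeine alters synaptic transmission and plasticity of the hippocampus mainly by blocking adenosine receptors. The activity of ryanodine receptors was not measured here.

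Between 9342945 and 16376922 reads were assigned to genes in each library, so that 3 counts, taken as the floor of detection, corresponded to 0.190 to 0.325 CPM. This unit is the count of a gene per 1000000 counts of the scaled library. Replicates of a group correlated at r = 0.978 to 0.985 across genes. Thy1 read 82.1 to 88.8 CPM in WT vehicle and 461 to 670 CPM in the 6 Tg4-42 libraries. Trh read 1.81 to 4.39 CPM against 48.0 to 64.7 CPM. Both matched the genotype of all 9 libraries. As parts of the transgene, they cannot tell caffeine from vehicle libraries of Tg4-42, so they did not check the treatment. Rbfox3, which encodes NeuN, was present at 89.3 to 148 CPM in every library. The 5 markers of endothelium and mural cells summed to 3.75 to 9.41 CPM, and those of oligodendrocytes to 227 to 461 CPM. In each group, replicates 1 and 2 were sequenced on lane 6 and replicate 3 on lane 7.

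In WT vehicle, the pump Atp2a2 (SERCA2, the widely expressed pump) had the highest level per length of the 10 genes, at 91.9 ± 9.33 CPM per kb of exon (SD, n = 3). It was followed by the sensor Stim2, the STIM protein that responds to small losses of store calcium, at 24.3 ± 4.77 CPM per kb, and by Itpr1, the main IP3 receptor of neurons, at 11.8 ± 1.05 CPM per kb. Stim1, Ryr2 and Ryr3 came next, with mean levels of 8.48, 7.32 and 6.85 CPM per kb, and neighbours in this order overlapped between libraries. Ryr1 was at 0.960 ± 0.0466 CPM per kb, Itpr2 at 0.688 ± 0.161, Itpr3 at 0.275 ± 0.0756 and Atp2a3 at 0.105 ± 0.0905 CPM per kb. The libraries of Ryr3 and Ryr1 did not overlap, nor did those of Atp2a2, Stim2 and Itpr1.

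The order of the per-length levels was the same in Tg4-42 vehicle, where the libraries of Itpr3 and Atp2a3 overlapped as well. In Tg4-42 caffeine, Ryr2 stood above Stim1, at 9.88 ± 0.866 against 7.96 ± 0.501 CPM per kb, and its libraries overlapped those of Itpr1. Division by the longest annotated transcript in place of all merged exons gave the same order in both vehicle groups, and in Tg4-42 caffeine it placed Stim1 above Ryr2. The distances between genes depended on the length used. In WT vehicle, the means of Stim2, Itpr1 and Stim1 were 25.2, 21.9 and 20.2 CPM per kb of longest transcript. With merged exons they were 24.3, 11.8 and 8.48 CPM per kb. Overlap between libraries was read with merged exons only. Merged exon lengths ran from 5133 bases for Stim2 to 28790 bases for Ryr2.

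**Figure D1:**
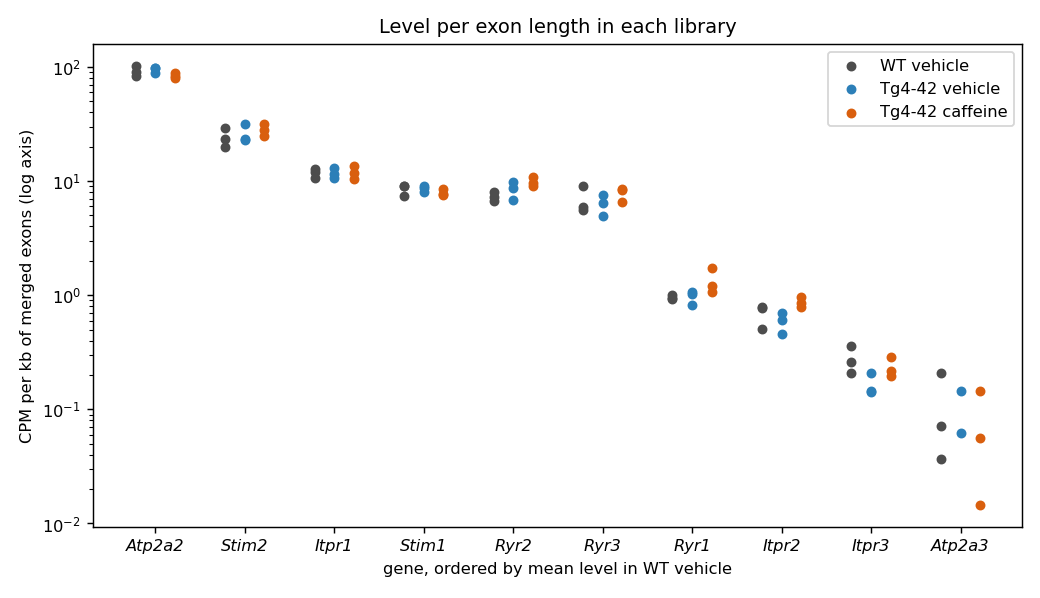
Level of each gene in each library as CPM per kb of merged exons, on a log axis, with genes ordered by their mean in WT vehicle and colours for the 3 groups. Atp2a2 was above all others and Atp2a3 lowest; the 1 Tg4-42 vehicle library with no Atp2a3 count is not drawn.

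The ryanodine receptors were mainly Ryr2, the isoform best known from heart, and Ryr3. Ryr2 held 48.9 ± 4.38% of the per-length level of its family in WT vehicle, 53.7 ± 2.98% in Tg4-42 vehicle and 51.9 ± 2.07% in Tg4-42 caffeine (SD, n = 3). Ryr3 held 44.7, 40.1 and 41.1% in the same order, and Ryr1, the isoform of skeletal muscle, 6.43, 6.17 and 6.93%. With the longest transcript as the length, Ryr2 held 56.6 to 61.3% and Ryr3 32.8 to 37.2%, so the 2 isoforms were further apart.

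Itpr1 made up most of the IP3 receptor level, with 92.4 ± 1.97% in WT vehicle, 93.9 ± 1.13% in Tg4-42 vehicle and 91.5 ± 0.982% in Tg4-42 caffeine. Its share ran from 90.8 to 92.6% in the caffeine libraries and from 92.8 to 95.1% in Tg4-42 vehicle, without overlap. The Itpr2 share ran from 5.44 to 7.47% against 3.75 to 5.38%, also without overlap. Both differences had an exact permutation p of 0.1, the smallest that 3 against 3 libraries can give, and an adjusted p of 0.692 over the 30 shares tested. The shares of a family sum to 100%, so these differences are not independent. In WT vehicle, the shares ran from 90.4 to 94.3% for Itpr1 and 3.74 to 6.57% for Itpr2, which overlapped both Tg4-42 groups. Atp2a2 held 99.8 to 100% of the SERCA level in every library. Stim2 held 72.4 to 80.4% of the STIM level, and 55.4 to 60.7% as group means with the longest transcript as the length.

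**Figure D2:**
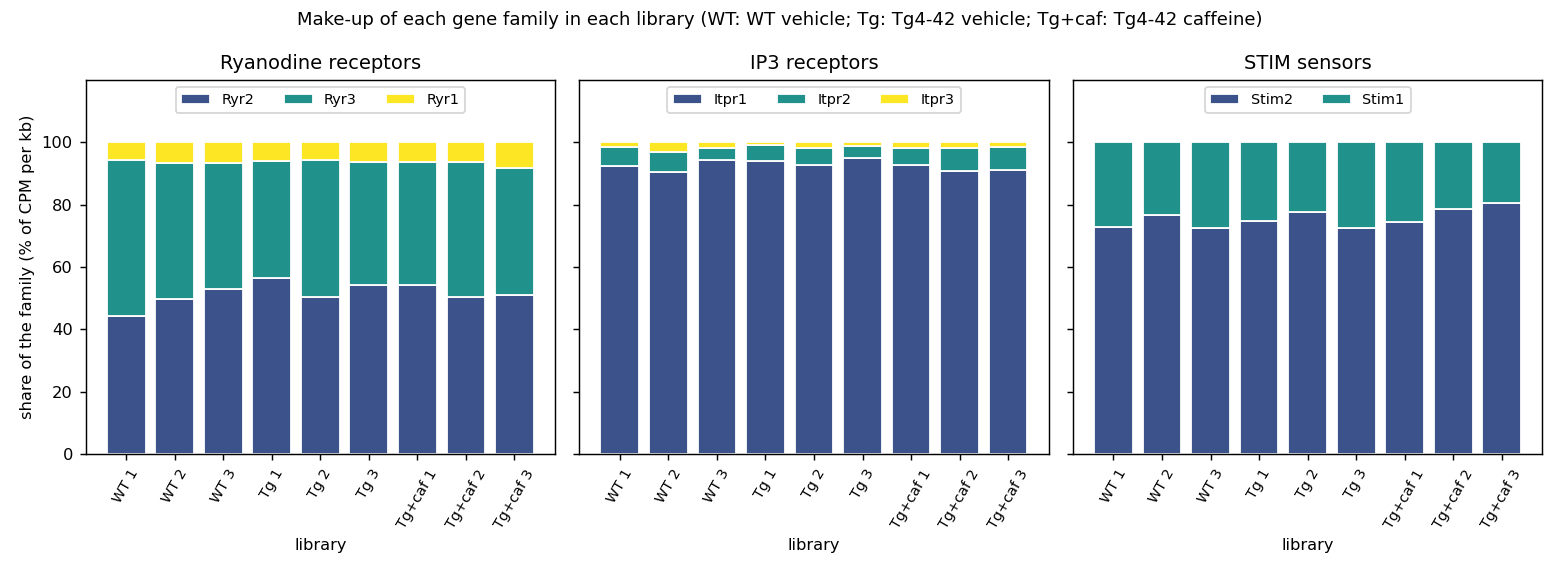
Share of each gene in the summed CPM per kb of its family, in percent, for each of the 9 libraries. Ryr2 and Ryr3 together made up most of the ryanodine receptors, Itpr1 most of the IP3 receptors and Stim2 most of the STIM sensors in all 9 libraries.

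None of the 10 genes was called at an adjusted p under 0.05 in any of the 3 comparisons by edgeR's quasi-likelihood test, and none by DESeq2 or limma-voom. Between Tg4-42 vehicle and WT vehicle, 0.0979% of all tested genes were called. An unadjusted p under 0.05 was found for Itpr3 alone, which was lower, by edgeR, and for 0 of the 10 genes by DESeq2, by limma-voom, with the replicate number as a block or with lane as a covariate; 1.09% of all tested genes were lower and 1.65% higher at that p. The median log2 fold change was -0.00 over the 10 genes and 0.00 over all tested genes. The 2 groups did not overlap for Itpr3 alone, beside 3.16% of all tested genes that were lower without overlap and 3.57% that were higher.

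Between Tg4-42 caffeine and Tg4-42 vehicle, 0.881% of tested genes were called, and this number rested on few libraries. It was 153 genes with all libraries, 0 without caffeine replicate 3 or without vehicle replicate 3, 3 without vehicle replicate 1, 58 without caffeine replicate 2 and 341 without caffeine replicate 1, 9 with lane as a covariate and 0 within lane 6. At an unadjusted p under 0.05, 2 of the 10 genes were higher (Ryr1 and Itpr2) and 0 were lower, against 7.15% and 9.82% of all tested genes. Ryr1 has merged exons over 16 kb, and of the 320 tested genes of that length 43 were higher and 23 lower at that p. Itpr2 was higher and Atp2a2 lower without overlap of the libraries, against 10.4% and 12.6% of all tested genes. DESeq2 and limma-voom likewise each had 2 of the 10 genes at an unadjusted p under 0.05. By edgeR, 0 of the 10 were at that p without caffeine replicate 3, without vehicle replicate 3 or within lane 6. Leaving out another library of the 2 groups gave 2 or 3. The median log2 fold change of the 10 genes was 0.17, and that of all tested genes was -0.01.

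Between Tg4-42 caffeine and WT vehicle, 0.415% of tested genes were called. These were 72 genes with all libraries, 287 without caffeine replicate 1, 59 without caffeine replicate 2 and 16 without caffeine replicate 3, and 42, 23 and 28 without WT replicate 1, 2 and 3. Here Ryr1 and Ryr2 were higher at an unadjusted p under 0.05 and no gene of the 10 was lower, against 6.78% and 8.65% of all tested genes. Both have merged exons over 16 kb. Of the 320 tested genes of that length, 39 were higher and 16 lower at that p, with a median log2 fold change of 0.12. With a correction for exon length, 1 of the 10 genes was at that p. Ryr1, Ryr2 and Itpr2 were higher without overlap, and none was lower without overlap, against 9.14% and 9.67%. DESeq2 and limma-voom also each gave 2 of the 10 genes at that p. By edgeR it was 1 gene without caffeine replicate 3 or within lane 6, 3 without WT replicate 1 and 2 on leaving out another library. The median log2 fold change was 0.11 over the 10 genes and -0.01 over all tested genes. This comparison shares its caffeine libraries with the preceding one and its WT libraries with the first, so the 3 sets of values are not independent.

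**Figure D3:**
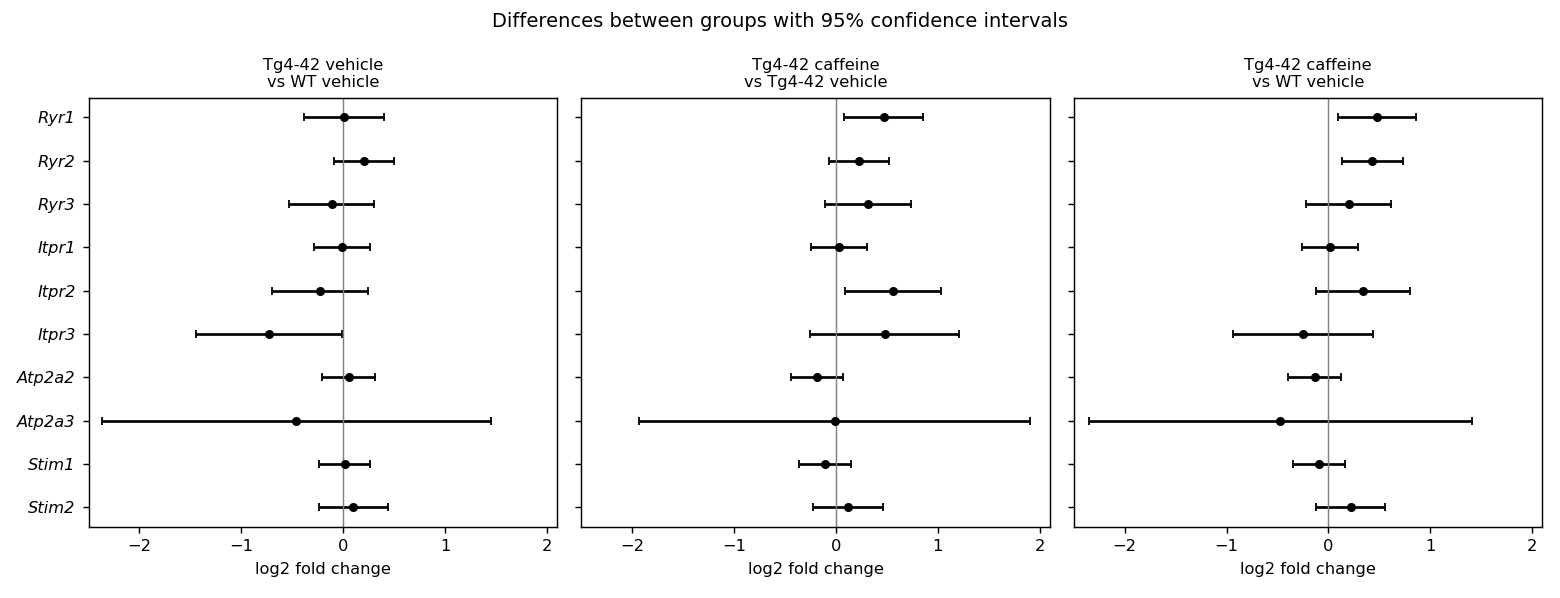
Log2 fold change of each gene in the 3 comparisons, with points for the edgeR estimate and bars for the 95% confidence interval. The intervals of Ryr1 and Itpr2 lay above 0 for caffeine against vehicle in Tg4-42, and those of Ryr1 and Ryr2 for caffeine in Tg4-42 against WT, before adjustment over all genes. That of Itpr3 lay below 0 for Tg4-42 vehicle against WT vehicle (-1.44 to -0.01), also before adjustment.

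Ryr1 lies at chr7:29003344-29125179 on the minus strand (mm10), Ryr2 at chr13:11553102-12106945 (minus) and Ryr3 at chr2:112631355-113217096 (minus). Ryr1 read 22.1, 20.2 and 20.6 CPM in WT vehicle, 23.2, 22.3 and 17.7 CPM in Tg4-42 vehicle and 23.2, 26.3 and 38.0 CPM in Tg4-42 caffeine. Caffeine replicate 3 stood far above the other 8 libraries, and the lowest caffeine library was level with the highest Tg4-42 vehicle library. The log2 fold change of caffeine against vehicle in Tg4-42 was 0.47 (SE 0.18, 95% interval 0.08 to 0.86), with an adjusted p of 0.206 by edgeR. Within lane 6 this difference was 0.14 (SE 0.20), and without caffeine replicate 3 it was 0.23. Against WT vehicle, the caffeine group differed by 0.48 (SE 0.18, adjusted p = 0.224 by edgeR), and by 0.23 within lane 6. Tg4-42 vehicle and WT vehicle differed by 0.01, with an interval from -0.39 to 0.40.

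Ryr2 read 230.0, 193 and 209 CPM in WT vehicle, 279.8, 252 and 196 CPM in Tg4-42 vehicle and 262, 279 and 311 CPM in Tg4-42 caffeine. All 3 caffeine libraries were above all 3 WT libraries, while the Tg4-42 vehicle libraries overlapped both. The caffeine group exceeded WT vehicle by a log2 fold change of 0.43 (SE 0.14, interval 0.13 to 0.73), with an adjusted p of 0.158 by edgeR. This value was 0.36 within lane 6. Caffeine against vehicle in Tg4-42 gave 0.23 (interval -0.07 to 0.53) and Tg4-42 vehicle against WT vehicle gave 0.20 (interval -0.09 to 0.50).

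Ryr3, the isoform described mainly in brain and smooth muscle, read 173, 112 and 105 CPM in WT vehicle, 123, 144 and 93.2 CPM in Tg4-42 vehicle and 125, 158 and 163 CPM in Tg4-42 caffeine. The 3 groups overlapped, and WT vehicle replicate 1 was the highest library. Its log2 fold change was 0.31 (interval -0.10 to 0.73) for caffeine against vehicle in Tg4-42, 0.20 (interval -0.22 to 0.62) for caffeine against WT vehicle and -0.12 (interval -0.53 to 0.30) for Tg4-42 vehicle against WT vehicle.

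**Figure D4:**
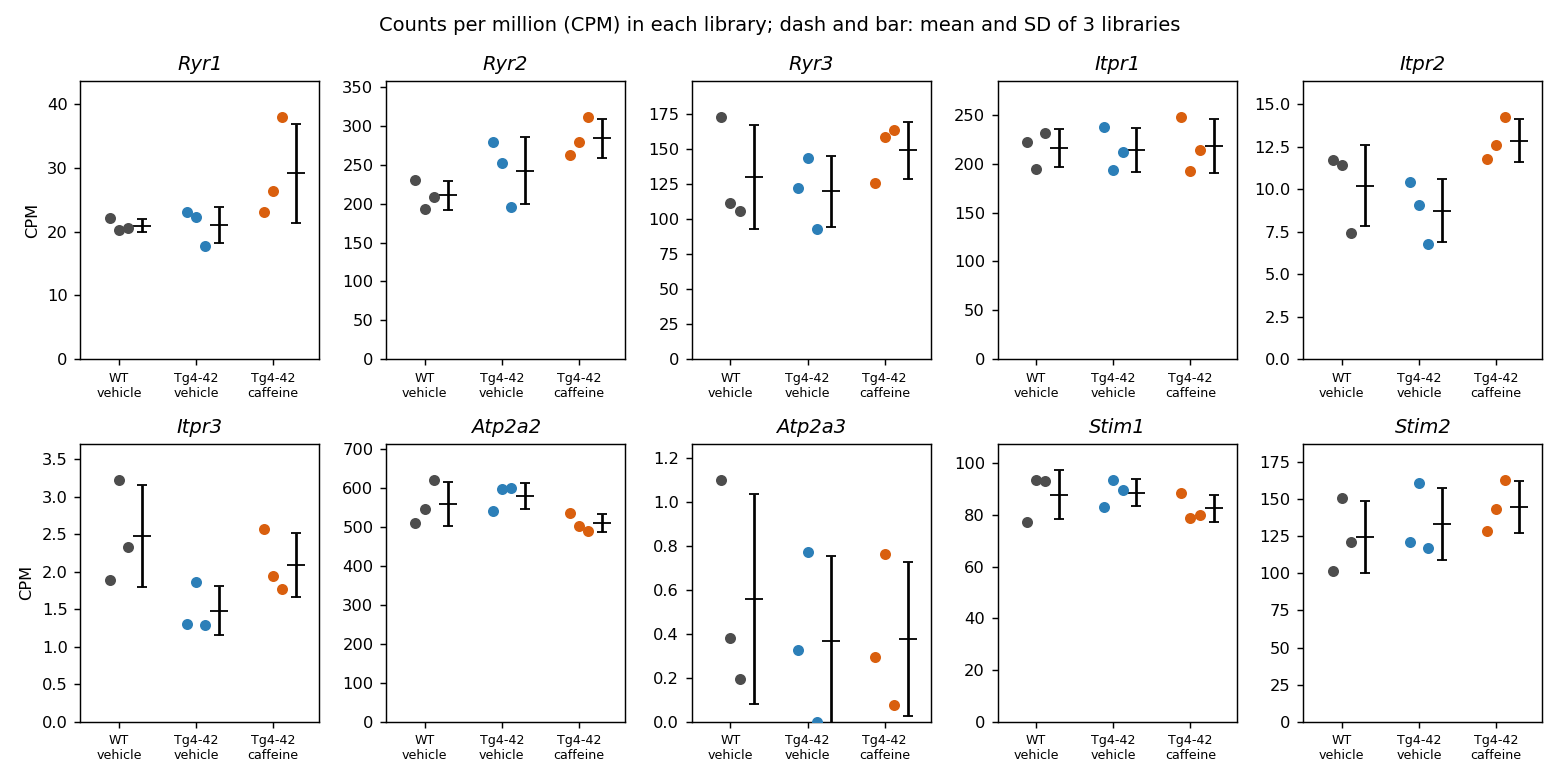
CPM of each of the 10 genes in each library, on linear axes from 0, with a dash and bar for the mean and SD of the 3 libraries of a group. Replicates 1 to 3 stand from left to right in each group; Ryr1 in caffeine replicate 3, at 38.0 CPM, stood above all other libraries.

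Itpr1 (chr6:108213096-108551109, plus strand) read 222, 195 and 232 CPM in WT vehicle, 238, 193 and 212 CPM in Tg4-42 vehicle and 248, 193 and 214 CPM in Tg4-42 caffeine. The groups overlapped almost fully. Of all tested genes, 11.1% had a smaller SD of log2 CPM over the 9 libraries, and the interval for caffeine against vehicle in Tg4-42 was -0.25 to 0.31 around a log2 fold change of 0.03. The intervals of the other 2 comparisons were -0.29 to 0.26 and -0.26 to 0.29.

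Itpr2 (chr6:146108299-146502223, minus strand), the isoform with the highest affinity for IP3, read 11.7, 11.4 and 7.44 CPM in WT vehicle, 10.4, 9.05 and 6.75 CPM in Tg4-42 vehicle and 11.8, 12.6 and 14.2 CPM in Tg4-42 caffeine. Every caffeine library was above every vehicle library of either genotype, although the lowest caffeine value was close to the highest WT value. Caffeine against vehicle in Tg4-42 gave a log2 fold change of 0.56 (SE 0.22, interval 0.09 to 1.03), with an adjusted p of 0.210 by edgeR. Within lane 6 it was 0.35. Against WT vehicle the caffeine group differed by 0.34 (interval -0.12 to 0.80), and by 0.08 within lane 6. The interval for Tg4-42 vehicle against WT vehicle was -0.70 to 0.25.

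Itpr3 (chr17:27057304-27122223, plus strand), an isoform known mainly from epithelia and taste cells, was counted 12 to 51 times per library. It read 1.88, 3.22 and 2.33 CPM in WT vehicle, 1.30, 1.86 and 1.28 CPM in Tg4-42 vehicle and 2.57, 1.94 and 1.77 CPM in Tg4-42 caffeine. The Tg4-42 vehicle libraries were below the WT vehicle libraries, with 1.86 CPM next to 1.88 CPM at the border. The log2 fold change of Tg4-42 vehicle against WT vehicle was -0.73 (SE 0.34, interval -1.44 to -0.01), and the adjusted p by edgeR was 1.00. Caffeine against vehicle in Tg4-42 gave 0.48 (interval -0.25 to 1.20), with overlapping libraries.

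Atp2a2 (chr5:122453513-122502225, minus strand) read 509, 547 and 620.4 CPM in WT vehicle, 540.2, 597 and 599 CPM in Tg4-42 vehicle and 536, 502 and 491 CPM in Tg4-42 caffeine. Each caffeine library was below each Tg4-42 vehicle library, by a narrow margin, and the caffeine and WT libraries overlapped. The log2 fold change of caffeine against vehicle was -0.19 (SE 0.12, interval -0.44 to 0.07), with an adjusted p of 0.472 by edgeR. The difference between Tg4-42 vehicle and WT vehicle was 0.05 (interval -0.21 to 0.31).

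Atp2a3 (chr11:72961169-72993044, plus strand), the SERCA3 gene of blood cells and some epithelia, was counted 14, 6 and 3 times in WT vehicle, 3, 12 and 0 times in Tg4-42 vehicle and 4, 11 and 1 times in Tg4-42 caffeine. It was at or under the floor of 3 counts in 4 of the 9 libraries, and the count of 0 allowed a level of up to 0.241 CPM. No difference between groups was detectable at this depth, with an interval of -1.93 to 1.91 on the log2 scale for caffeine against vehicle.

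Stim1 (chr7:102267806-102437319, plus strand), the sensor that gates Orai channels on strong depletion, read 77.1, 93.4 and 93.3 CPM in WT vehicle, 83.01, 93.6 and 89.5 CPM in Tg4-42 vehicle and 88.5, 78.96 and 80.2 CPM in Tg4-42 caffeine. The groups overlapped, and of all tested genes 5.24% had a smaller SD of log2 CPM over the 9 libraries. The interval for caffeine against vehicle was -0.36 to 0.15, and that for Tg4-42 vehicle against WT vehicle was -0.24 to 0.27. Stim2 (chr5:53998499-54121057, plus strand) read 102, 151 and 121 CPM in WT vehicle, 121, 161 and 117 CPM in Tg4-42 vehicle and 128, 143 and 163 CPM in Tg4-42 caffeine. Its groups overlapped too, with a log2 fold change of 0.12 (interval -0.22 to 0.46) for caffeine against vehicle and 0.22 (interval -0.12 to 0.56) for caffeine against WT vehicle.

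Markers of hippocampal cell types also differed with caffeine. The 8 markers of dentate granule cells were all higher in Tg4-42 caffeine than in Tg4-42 vehicle, 2 of them called by edgeR and by limma-voom and 5 by DESeq2, with a median log2 fold change of 0.74. They summed to 919 to 1147 CPM in Tg4-42 caffeine, 475 to 763 CPM in Tg4-42 vehicle and 541 to 781 CPM in WT vehicle. Over all tested genes, 8420 of 17361 were higher, and 0.881% were called in either direction by edgeR. Of the 8 markers, the paper names Dsp and Prox1 as upregulated with caffeine in these same libraries, so their direction was known in advance. The library with the highest granule marker sum, caffeine replicate 3, was the highest for Ryr1, Ryr2, Itpr2 and Stim2 and the lowest for Atp2a2. The library with the lowest sum, Tg4-42 vehicle replicate 3, was the lowest for Ryr1, Ryr3, Itpr2, Itpr3 and Atp2a3. Itpr1 and Stim1 were at no extreme in these libraries, and a relation of any member to the sum was not tested. The 8 interneuron markers were all lower, 1 of them called, with a median of -0.57 and sums of 659 to 827 CPM against 902 to 1398 CPM in Tg4-42 vehicle and 896 to 1004 CPM in WT vehicle. Of the CA1 markers, 6 of 7 were lower, with 0 called by edgeR and 1 (Wfs1) by DESeq2 and by limma-voom, a median of -0.19 and sums of 428 to 647 CPM against 609 to 737 CPM, and 536 to 911 CPM in WT vehicle.

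Glial markers were lower as well, with 0 called in each list by edgeR; limma-voom called 3 oligodendrocyte, 3 astrocyte and 1 microglial marker lower, and DESeq2 2, 1 and 0. All 5 oligodendrocyte markers were lower (median -0.76, sums of 227 to 332 CPM against 330.1 to 461 CPM, and 290.1 to 434 CPM in WT vehicle). Of the 5 astrocyte markers 4 were lower (median -0.80, 64.8 to 82.5 CPM against 87.7 to 98.2 CPM, and 79.6 to 111 CPM in WT vehicle), and all 5 microglial markers were lower (median -0.51, 17.4 to 21.8 CPM against 24.0 to 31.6 CPM, and 20.8 to 27.7 CPM in WT vehicle). The remaining lists, for pan-neuronal genes, CA2, CA3, subiculum and neocortex, endothelium and mural cells, choroid plexus and progenitors, had 0 called by edgeR, with medians from -1.96 (choroid plexus) to 0.22 (CA3); DESeq2 called 1 pan-neuronal and 1 CA3 marker, and limma-voom 1 pan-neuronal marker. The 3 choroid plexus markers summed to 18.9 to 55.7 CPM in Tg4-42 caffeine and 16.5 to 144 CPM in Tg4-42 vehicle, which overlapped. In WT vehicle they summed to 55.1 to 86.0 CPM. Of the 5 pan-neuronal markers 4 were lower, 2 of them at an unadjusted p under 0.05, and 1 was higher at that p. Their sums were 5229 to 6549 CPM in Tg4-42 caffeine, 6205 to 7905 CPM in Tg4-42 vehicle and 6758 to 7018 CPM in WT vehicle. Of the 4 progenitor markers, Sox11 and Dcx were tested, and both were lower at an unadjusted p under 0.05. Igfbpl1 and Eomes read at most 2.50 and 0.449 CPM, so the sums were nearly all Sox11 and Dcx. The sums were 164 to 248 CPM in Tg4-42 caffeine and 275 to 318 CPM in Tg4-42 vehicle, without overlap, and 219 to 287 CPM in WT vehicle. The paper counted more cells stained for doublecortin (DCX) in caffeine-treated female mice. That measure differs from RNA in sorted nuclei, and it came from other animals. All 9 libraries here read as male. The female-specific RNA Xist was at 0.482 to 2.23 CPM and the Y-linked gene Ddx3y at 108 to 157 CPM. No granule, interneuron or glial marker was at 0 in a whole group. Against WT vehicle, all 8 granule markers were again higher in Tg4-42 caffeine, with a median of 0.70 and 0 called by edgeR or limma-voom and 4 by DESeq2, and 1 CA1 marker was called lower by edgeR. The part of these differences in the values of the calcium store genes was not tested, and in bulk nuclei fewer cells of a type and less RNA per cell cannot be told apart.

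The partners of the 10 genes were read from 6 lists. Among the partners of the ryanodine receptors and proteins of the store lumen, 17 of 21 listed genes were tested. Caffeine against vehicle in Tg4-42 gave 2 called genes by edgeR, both lower, beside 5 by DESeq2 and 4 by limma-voom. Calr encodes calreticulin, a calcium buffer and chaperone of the lumen. It read 575, 679 and 698 CPM in WT vehicle, 887, 831 and 886 CPM in Tg4-42 vehicle and 537, 485 and 458 CPM in Tg4-42 caffeine. The 3 groups did not overlap, with Tg4-42 vehicle highest and Tg4-42 caffeine lowest. Calr fell by 0.81 on the log2 scale with caffeine in Tg4-42 (SE 0.13, adjusted p = 0.0211 by edgeR). The call was lost without caffeine replicate 3 (adjusted p = 0.189), without vehicle replicate 1 (0.0678) or without vehicle replicate 3 (0.138), and within lane 6 the difference was -0.73 with an adjusted p of 0.613. Tg4-42 vehicle stood above WT vehicle by 0.42 (SE 0.13), with an adjusted p of 1.00 by edgeR, and caffeine stood 0.40 below WT vehicle (log2 fold change -0.40, adjusted p = 0.149).

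Canx, the membrane chaperone calnexin, read 754, 796 and 857 CPM in WT vehicle, 766, 882 and 1017 CPM in Tg4-42 vehicle and 618, 590.1 and 503 CPM in Tg4-42 caffeine. All 3 caffeine libraries were below all 6 vehicle libraries. Canx fell by 0.64 with caffeine in Tg4-42 (SE 0.14, adjusted p = 0.0462 by edgeR). The call was lost with lane as a covariate (adjusted p = 0.0686), within lane 6 (log2 fold change -0.43, adjusted p = 0.868), and on leaving out caffeine replicate 2 (0.0914), caffeine replicate 3 (0.297), vehicle replicate 1 (0.0678), vehicle replicate 2 (0.0672) or vehicle replicate 3 (0.266). Over the whole list, 4 genes were higher and 4 lower at an unadjusted p under 0.05, beside 7.15% and 9.82% of all tested genes. The median log2 fold change of the list was 0.12.

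Jph4, a neuronal junctophilin that ties the store membrane to the plasma membrane, was the 1 gene of this list called by edgeR between Tg4-42 caffeine and WT vehicle, beside 5 by DESeq2 and 1 by limma-voom. It read 75.1, 86.5 and 77.3 CPM in WT vehicle, 89.6, 117 and 94.9 CPM in Tg4-42 vehicle and 129, 130.4 and 147 CPM in Tg4-42 caffeine. The groups did not overlap, with Tg4-42 vehicle between the others. Jph4 rose by 0.77 against WT vehicle (SE 0.13, adjusted p = 0.0150 by edgeR). The call was lost without caffeine replicate 3 (0.145), WT replicate 1 (0.0524) or WT replicate 3 (0.0638), and within lane 6 the difference was 0.69 with an adjusted p of 0.348. The difference of caffeine from vehicle in Tg4-42 was 0.43 (adjusted p = 0.110 by edgeR), and that of Tg4-42 vehicle from WT vehicle 0.34 (adjusted p = 1.00). Jph1, another junctophilin, was 0.69 above WT vehicle in Tg4-42 caffeine and was not called by edgeR (adjusted p = 0.0724) or limma-voom (0.0590). It was called by DESeq2 (0.00729) and by edgeR without the low-count filter (0.000332), with only the 2 groups compared (0.0389) or without caffeine replicate 1 (0.0422). Leaving out any other library did not call it, with an adjusted p of 0.0937 to 0.448 by edgeR. Against Tg4-42 vehicle, DESeq2 (0.0274), limma-voom (0.0403) and edgeR without the filter (0.00442) called it, and the main edgeR fit did not (0.0952). The median of the list was -0.04 for caffeine against WT vehicle, and -0.05 for Tg4-42 vehicle against WT vehicle. In the latter, 0 genes were called by edgeR, DESeq2 or limma-voom, and 2 were higher at an unadjusted p under 0.05 by edgeR, beside 1.65% of all tested genes. Calm2, a gene of calmodulin, which binds both receptor families, had the highest per-length level of the list in WT vehicle, at 1011 CPM per kb.

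**Figure D5:**
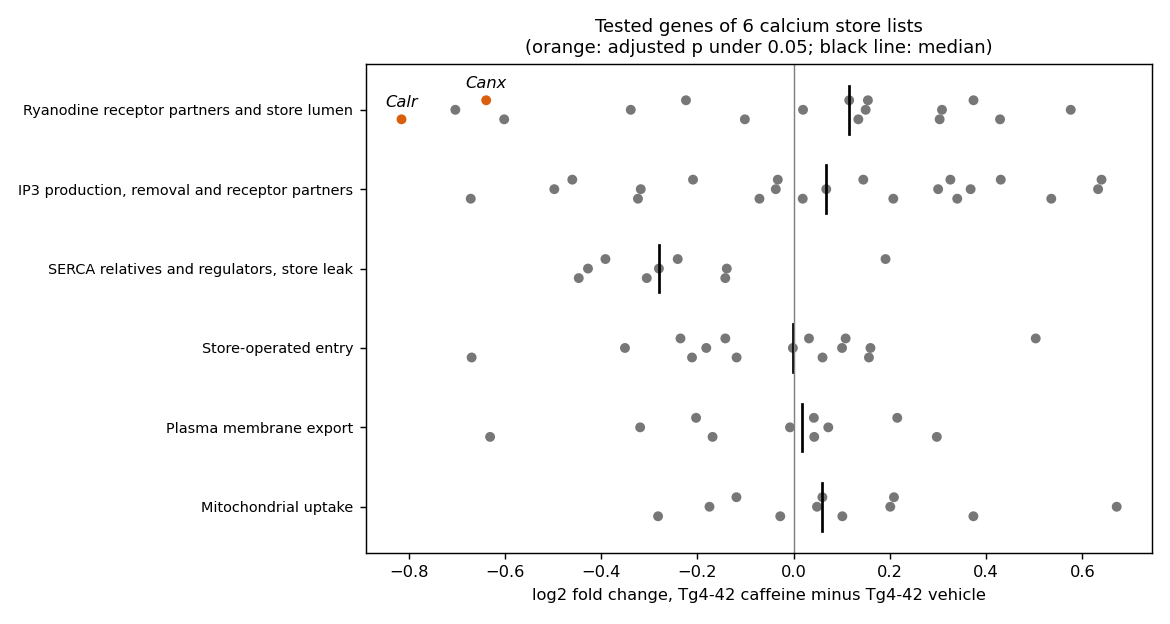
Log2 fold change of Tg4-42 caffeine against Tg4-42 vehicle for each tested gene of the 6 lists, with orange for an adjusted p under 0.05 by edgeR and a black line for the median. Calr and Canx were the genes called by edgeR, and 8 of 9 genes of the pump and leak list lay below 0, beside 8940 of all 17361 tested genes.

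In the list of IP3 production, removal and receptor partners, 21 of 23 listed genes were tested and 0 were called by edgeR in any comparison. DESeq2 and limma-voom each called Itpka and Erp44 for caffeine against vehicle in Tg4-42, and DESeq2 called Plcg2 for caffeine against WT vehicle, where edgeR without the low-count filter called 4 genes. By edgeR, caffeine against vehicle in Tg4-42 gave 4 higher and 2 lower genes at an unadjusted p under 0.05, with a median of 0.07. At that p, 7.15% of all tested genes were higher and 9.82% lower. Caffeine against WT vehicle gave 5 higher and 2 lower genes at that p, beside 6.78% and 8.65% of all tested genes. Tg4-42 vehicle against WT vehicle gave 1 higher gene, beside 1.65% of all tested genes. Itpka, the kinase that removes IP3 in neurons, had the smallest p of the list (log2 fold change 0.64, SE 0.15, adjusted p = 0.0600 by edgeR). It read 68.0, 76.6 and 74.8 CPM in Tg4-42 vehicle and 108, 100.5 and 134 CPM in Tg4-42 caffeine, which did not overlap, while WT vehicle read 71.3, 108 and 94.8 CPM and spanned both. Erp44, a lumenal protein that binds Itpr1, differed by -0.46 (adjusted p = 0.106 by edgeR). Against WT vehicle, the phospholipase C genes Plcg2 (0.99, adjusted p = 0.106) and Plcb4 (-0.62, adjusted p = 0.137) came first, with a list median of 0.11. Between Tg4-42 vehicle and WT vehicle the first were the kinase genes Itpkc (0.51) and Itpka (-0.32), both at an adjusted p of 1.00, with a list median of 0.02. Grm5, the metabotropic glutamate receptor upstream of IP3, had the highest per-length level in WT vehicle, at 115 CPM per kb, and Itpka the next, at 50.2 CPM per kb.

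The list of SERCA relatives, SERCA regulators and store leak held 9 tested genes of 10, and 0 were called by edgeR in any comparison. For caffeine against vehicle in Tg4-42, DESeq2 called Tmbim6 and Tmco1, and limma-voom Tmbim6. With caffeine against vehicle in Tg4-42, 8 of the 9 were lower, 5 of them at an unadjusted p under 0.05, and the median was -0.28. Over all tested genes, 8940 of 17361 were lower, 9.82% were lower at that p, and the median was -0.01. Tmbim6, an antiapoptotic protein linked to store leak, differed by -0.45 (SE 0.12, adjusted p = 0.0929 by edgeR), and Tmco1, a calcium-release channel of the store membrane, by -0.43 (SE 0.12, adjusted p = 0.103). Psen2, whose product has been linked to store leak, was also at that p (-0.28, adjusted p = 0.280 by edgeR). Tmbim6 read 150.1, 194 and 172 CPM in WT vehicle, 181, 169 and 193 CPM in Tg4-42 vehicle and 139, 136 and 123 CPM in Tg4-42 caffeine, so all caffeine libraries were the lowest of the 9. Against WT vehicle 5 genes were lower at an unadjusted p under 0.05, beside 8.65% of all tested genes. The median of the list was -0.30, with Tmbim6 at -0.37 and Psen2 at -0.36. Between Tg4-42 vehicle and WT vehicle 0 genes were at that p, the median was 0.09, and Sln (0.68), a SERCA inhibitor near the floor, and Tmco1 (0.13) came first without being called. Atp2c1, a calcium and manganese pump of the Golgi, had 39.7 CPM per kb in WT vehicle and Tmbim6 37.6 CPM per kb.

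Store-operated entry (15 of 16 listed genes tested), plasma membrane export (10 of 10) and mitochondrial uptake (11 of 11) had 0 called genes by edgeR in all 3 comparisons. For caffeine against vehicle in Tg4-42, Atp2b4 was called by DESeq2, by limma-voom and by edgeR without the low-count filter, and Orai2 by the last. Each list had 1 gene at an unadjusted p under 0.05 there, while 1 export gene was at that p for caffeine against WT vehicle and 1 mitochondrial gene for Tg4-42 vehicle against WT vehicle. Over all tested genes, 7.15% were higher and 9.82% lower at that p for caffeine against vehicle in Tg4-42. The medians of the 3 lists in that comparison were -0.00, 0.02 and 0.06. The smallest p in each list belonged to Orai2, a pore subunit of store-operated channels (0.50, adjusted p = 0.203 by edgeR), Atp2b4, a plasma membrane calcium pump (-0.63, adjusted p = 0.0884), and Smdt1, a subunit of the mitochondrial uniporter (0.37, adjusted p = 0.221). Next in the export and mitochondrial lists were the exchanger Slc8a3 (-0.32) and the uniporter pore Mcu (0.21).

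For caffeine against WT vehicle, the medians of the 3 lists were -0.04, 0.00 and -0.03. Trpc6 (0.35) and Orai2 (0.37) were the first genes of store-operated entry, Atp2b3 (0.33) and Atp2b4 (-0.33) of export, and Micu2 (0.34) and Vdac3 (-0.18) of mitochondrial uptake. For Tg4-42 vehicle against WT vehicle, the medians were -0.04, 0.05 and -0.03, and the first genes were Trpc6 (0.29) and Trpc7 (0.63), Atp2b4 (0.30) and Atp2b2 (0.13), and Smdt1 (-0.38) and Vdac2 (-0.13). Per length in WT vehicle, the highest levels were those of Saraf, a brake on STIM-gated entry (184 CPM per kb), and Sept4 (37.6), of the pumps Atp2b1 (134) and Atp2b2 (44.1), and of the outer membrane channel Vdac1 (81.8) and Smdt1 (37.4).

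The members that varied most over the 9 libraries were Atp2a3, Itpr3 and Itpr2, with an SD of log2 CPM of 1.00, 0.40 and 0.35. The genes closest to Itpr2 in their centred log2 CPM were St18, 4833422C13Rik and Clmn, with root mean square differences of 0.08, 0.10 and 0.10 on the log2 scale. Those closest to Itpr3 were Depdc7 (0.16), Tmem123 (0.19) and Pstpip2 (0.19). Those closest to Atp2a3, a gene near the floor, were Klhl14 (0.35), Gm31816 (0.48) and Slc15a2 (0.51).

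Because the library kit did not keep strand, reads in exons shared with a gene on the opposite strand cannot be told apart. Such overlaps covered 916 bases between Ryr3 and Aven (5.88 to 9.46 CPM), 864 bases between Ryr1 and Gm26604 (0.974 to 2.65 CPM), 181 bases between Itpr1 and Gm44101 (2.01 to 7.40 CPM), 233 bases between Itpr3 and Itpr3os (0 counts) and 83 bases between Atp2a2 and Gm43361 (59.6 to 93.0 CPM).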

How the data were processed

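Per the labels and the methods of the study, the authors isolated nuclei from frozen hippocampi, sorted them for NeuN, prepared libraries with SMART-Seq v4 and Nextera XT, which do not keep strand, and sequenced single 50 bp reads. They aligned the reads to mm10 and counted those in exons; the deposited files hold these raw counts per gene, not normalized, and tool versions are not given in the sources used here. The labels name 6 and the methods 3 mice per group for nuclei, and whether animals were pooled is not stated, so p-values measure the spread between these libraries.

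Gene symbols, positions and exon lengths came from GENCODE M21; 48349 gene identifiers matched and 360 did not. The 9 libraries were fitted together with edgeR 4.0.16 in R 4.3.3 (TMM scaling, filterByExpr with a minimum count of 10 and total of 15, robust quasi-likelihood test), and p-values were adjusted over all 17361 tested genes by the Benjamini-Hochberg method. CPM used TMM-scaled library sizes. Shares and single genes were compared by two-sided exact permutation tests. Scripts were tested on simulated data. Counting error alone underlies the floor of 3 counts.

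Members, gene lists and marker lists were chosen with earlier results of these data known. From the lists, the text names genes called in any comparison, the 2 with the smallest unadjusted p per list and comparison, and the 2 with the highest per-length level in WT vehicle; a few genes under this rule are not reported here. Alternatives were RLE scaling, DESeq2 1.42.0, limma-voom 3.58.1, no low-count filter, only the 2 groups compared, a replicate block, lane as a covariate, leaving out each library and the longest transcript as length. GC content, exon length and lane 6 alone were added after seeing the data.

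Libraries with the same number deviated together between Tg4-42 vehicle and WT vehicle (r = 0.188, 0.138 and 0.156 for the residuals of numbers 1, 2 and 3), while the labels state no pairing; the other comparisons had r from -0.171 to 0.181. No caffeine-treated WT library was analysed here.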

Additional observations from a re-analysis of the deposited data

How the results depend on the processing

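The number of members called was 0 in all 3 comparisons under every alternative run. The count of called list genes was 2 for caffeine against vehicle in Tg4-42 and became 10 with DESeq2, 8 with limma-voom, 7 without the low-count filter, 4 with only the 2 groups or with GC correction, 1 with lane as a covariate and 0 within lane 6; leaving out 1 library gave 0 to 3. For caffeine against WT vehicle it was 1 and became 6 with DESeq2, 8 without the filter, 2 with only the 2 groups or with GC correction and 0 within lane 6; leaving out 1 library gave 0 to 3. All genes called for caffeine against vehicle numbered 153, against 740 with DESeq2, 587 with limma-voom, 987 without the filter, 262 with GC correction and 9 with lane; for caffeine against WT vehicle 72, against 540, 125, 860, 153 and 42. Between Tg4-42 vehicle and WT vehicle they numbered 17, and 74 without the filter. The causes were not tested.

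With the replicate block in edgeR, the call of Canx was lost (adjusted p = 0.0508) and Itpka was called (adjusted p = 0.0419) for caffeine against vehicle. In that comparison, the residuals of libraries numbered 1, 2 and 3 had r of 0.152, 0.181 and -0.171. No other call among the members and pathway lists changed, 2 cell type markers were added (Plk5 against WT, Reln against vehicle), and 187, 82 and 16 genes were called for caffeine against vehicle, caffeine against WT and Tg4-42 vehicle against WT.

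Signs turned for log2 fold changes of members near 0 that were not called. For Ryr1 in Tg4-42 vehicle against WT vehicle they were -0.00015 (RLE), -0.0010 (DESeq2), -0.00018 (no filter), -0.00053 (2 groups), -0.018 (GC) and -0.043 (length), and for Stim1 -0.0057 (GC) and -0.017 (length); Itpr1 was 0.036 within lane 6. For caffeine against vehicle, Atp2a3 was 0.034 (DESeq2), 0.38 (limma-voom), 0.012 (no filter), 0.031 (replicate block), 0.022 (lane) and 0.022 (length), Itpr1 -0.0040 (limma-voom) and -0.018 (length), and Stim2 -0.041 within lane 6. For caffeine against WT, Itpr1 was -0.025 (limma-voom) and -0.074 (length). Leaving out 1 library turned signs within these ranges: for Tg4-42 vehicle against WT vehicle, Ryr1 -0.065 to 0.11, Ryr3 -0.27 to 0.14, Itpr1 -0.095 to 0.053, Atp2a2 -0.012 to 0.12, Atp2a3 -1.86 to 0.42, Stim1 -0.074 to 0.058 and Stim2 -0.064 to 0.26; for caffeine against vehicle, Itpr1 -0.073 to 0.11 and Atp2a3 -1.01 to 1.39; for caffeine against WT, Itpr1 -0.087 to 0.096 and Atp2a3 -1.48 to 0.41. Over 10 settings, the adjusted p of Ryr1 and of Itpr2 for caffeine against vehicle ran from 0.121 to 0.958 and from 0.104 to 0.900, and that of Ryr2 for caffeine against WT from 0.0559 to 0.687. Atp2a3 was too shallow for the fit of only 2 groups.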

Other observations

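Some of the store genes best known from muscle did not pass the filter on low counts and were not tested, while others, such as Jph1, Pln and Ryr1, did. In WT vehicle, the fast muscle pump Atp2a1 read 0.526 ± 0.381 CPM, and the calsequestrins Casq1 and Casq2, the calcium buffers of the muscle store, read 0.329 ± 0.230 and 0.573 ± 0.662 CPM (SD, n = 3). Jph2, the junctophilin of heart muscle, read 0.365 ± 0.400 CPM. These 4 genes were named because they did not pass the filter, after their values were seen.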
